A study of Mus musculus with 6 samples.

Results

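The matrix proteases and their inhibitors were taken as every gene symbol of the MMP, TIMP and ADAMTS families in the FPKM values of mouse brain microvessels. FPKM counts sequenced fragments scaled to transcript length and to library size, so genes can be compared by level within a library. The 3 families held 46 of the 23183 symbols: 23 MMP, 4 TIMP and 19 ADAMTS genes. The expression of 32 of them averaged at least 1 FPKM over the 6 libraries and was tested (12 MMP, 4 TIMP and 16 ADAMTS genes), and 14 stayed under that level and were not tested.

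Microvessels came from the brains of C57BL/6 mice, 3 WT mice (TEK-cre, Crif1+/+) and 3 TEKCRIF1 KO mice (TEK-cre, Crif1 flox/flox), with 1 library per mouse. Both groups carried the Cre transgene, and the labels list no treatment. The ages and sexes of the mice were not given in the sources used here. Tek drives Cre in endothelial cells and is known to be active in blood cell lineages too, so only cells outside these lineages are expected to keep the gene. Crif1 (Gadd45gip1) encodes a mitoribosome factor needed to make the respiratory chain. The comparison addressed which transcripts differ in microvessels when endothelial mitochondria are impaired, a setting in which the study examined the blood-brain barrier. In what follows, 3 values for a group are given in the order of mouse 1, 2 and 3, WT first.

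Matrix metalloproteinases (MMPs) are zinc enzymes that cleave collagens, laminins and other matrix proteins, either secreted or tethered to the cell surface. ADAMTS proteases are secreted relatives with thrombospondin repeats, and their members trim procollagens, cut proteoglycans or cleave von Willebrand factor. The tissue inhibitors of metalloproteinases (TIMPs) block the active site of these enzymes. In brain vessels MMP activity is known for its ability to open the basement membrane and tight junctions, and Timp3 is known to stay bound to the matrix.

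The estimated depth was 6400000 to 11800000 fragments per library, and was lowest in KO 2. A level of 3 fragments over 1 kb of transcript corresponded to 0.25 to 0.47 FPKM. The deleted gene was lower in all 3 KO libraries than in every WT library, by 0.77 on the log2 scale. All 6 endothelial markers were detected in each library, with a summed level of 727 to 1005 FPKM in WT and 641 to 858 FPKM in KO. Most of this sum came from Cldn5, a tight junction protein. Cdh5, which encodes VE-cadherin of endothelial junctions, measured 86.7, 92.4 and 91.3 FPKM in WT and 50.8, 42.5 and 38.1 FPKM in KO. The groups did not overlap, and the difference was -1.03 on the log2 scale, as KO minus WT (unadjusted limma p = 0.000303, adjusted p = 0.841, exact permutation p = 0.1), while the other 5 endothelial markers overlapped between the groups. In the markers of choroid plexus, the tissue that makes cerebrospinal fluid, KO 1 and KO 3 stood apart from the other 4 libraries. The summed level of Ttr, Kl, Clic6 and Kcne2 was 8504 FPKM in KO 1 and 10210 FPKM in KO 3, against 2752 to 3192 FPKM in WT and 2876 FPKM in KO 2. In these bulk libraries fewer cells of a type and less RNA per cell cannot be told apart.

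A run of 10 MMP genes lies on chromosome 9, in the order Mmp13, Mmp12, Mmp1b, Mmp3, Mmp1a, Mmp10, Mmp8, Mmp27, Mmp20 and Mmp7 (chr9:7272514-7699585, GRCm38, 427 kb). None of these 10 genes reached a mean of 1 FPKM, whereas 12 of the other 13 MMP genes did. Promoter windows, from 250 bases before to 50 bases after each annotated start, were read from RefSeq (GRCm38.p6). A window was given for 32 of the 46 members. In 8 of the 10 cluster genes the letters TGANTCA, the word bound by AP-1 (dimers of Fos and Jun proteins), were followed within 60 bases by TATAAA on the transcribed strand. The 8 stretches are shown because they run through the start region of genes that were at or near 0 here. Each is printed 5′ to 3′ on its gene's own strand with the AP-1 word and the TATA word in capitals.
Mmp13: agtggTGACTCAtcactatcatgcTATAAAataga
Mmp12: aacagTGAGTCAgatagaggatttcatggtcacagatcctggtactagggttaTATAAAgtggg
Mmp1b: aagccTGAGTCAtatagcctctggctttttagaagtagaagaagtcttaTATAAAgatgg
Mmp3: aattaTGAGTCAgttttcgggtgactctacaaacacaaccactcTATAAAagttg
Mmp1a: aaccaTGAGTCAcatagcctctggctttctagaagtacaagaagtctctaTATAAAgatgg
Mmp10: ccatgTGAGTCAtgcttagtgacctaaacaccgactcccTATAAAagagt
Mmp20: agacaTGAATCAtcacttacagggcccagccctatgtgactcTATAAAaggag
Mmp7: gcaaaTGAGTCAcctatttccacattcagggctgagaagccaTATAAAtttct

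From the first base of the AP-1 word to the first base of the TATA word the distance was 19 bases in Mmp13 and 48 bases in Mmp12, with the other 6 genes between these. Mmp1b is transcribed from the minus strand (chr9:7388065-7388124) and Mmp1a, the other gene named after collagenase 1, from the plus strand (chr9:7464063-7464123), with Mmp3 between them. The same arrangement occurred in 0 of the 22 other members with a window and in 65 of the 32851 windows of all genes, or 0.198%. TGANTCA reads the same on both strands and occurred in 7.81% of all windows, and TATAAA on either strand in 13.62%. Mmp8 and Mmp27 held no AP-1 word. The match describes letters in a window and is not a measurement of binding.

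**Figure D1:**
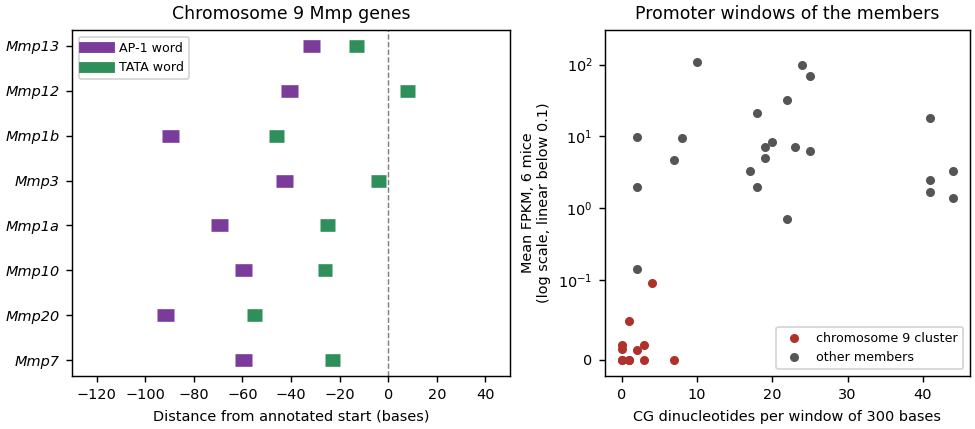
Left, position of the AP-1 word and the TATA word relative to the annotated start (dashed line, in bases) in the 8 chromosome 9 Mmp genes that hold both. Right, CG dinucleotides in each 300-base window of the 32 members with a window against the gene's mean FPKM over the 6 mice (log scale, linear below 0.1). The cluster windows hold 0 to 7 CG dinucleotides and the windows of the other members 2 to 44.

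Most members outside the cluster had a GC box in the promoter window. This word, GGGCGG on either strand, occurred in 18 of the 22 other members with a window, in 0 of the 10 cluster genes and in 35.7% of all windows. The 4 other members without it were Adamts12, Adamts17, Timp4 and Mmp21, and the CG dinucleotides in their windows numbered 7, 17, 2 and 2. The median number of CG dinucleotides was 20 in windows of the other members, 1 in the cluster and 7 over all windows. The 250 bases before the start are shown for Mmp14 and Adamts2, with the GC boxes in capitals. Mmp14 had the highest mean level of the MMP genes, and Adamts2 was lower in every KO mouse than in every WT mouse. The Mmp14 stretch (chr14:54431348-54431597, plus strand) holds 2 GC boxes and 10 CG dinucleotides, and the Adamts2 stretch (chr11:50601835-50602084, plus strand) holds 5 GC boxes and 34 CG dinucleotides.
Mmp14: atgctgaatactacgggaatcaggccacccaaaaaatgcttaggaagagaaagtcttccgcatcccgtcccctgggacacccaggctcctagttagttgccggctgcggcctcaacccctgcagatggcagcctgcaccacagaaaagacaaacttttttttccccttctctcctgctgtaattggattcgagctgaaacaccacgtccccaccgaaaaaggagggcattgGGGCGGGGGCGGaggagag
Adamts2: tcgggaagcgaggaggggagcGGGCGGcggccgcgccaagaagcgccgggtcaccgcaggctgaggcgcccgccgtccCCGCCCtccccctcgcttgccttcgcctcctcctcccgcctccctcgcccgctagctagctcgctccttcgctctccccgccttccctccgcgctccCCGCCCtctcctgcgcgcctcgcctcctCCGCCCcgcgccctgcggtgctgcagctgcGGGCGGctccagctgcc

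The levels of the 3 families were carried by few genes. Mmp14 and Mmp15, both membrane-type enzymes, made up 64.1 to 70.0% of the summed MMP level in every library. Timp2 and Timp3 made up 86.2 to 92.1% of the summed TIMP level. The MMP sum was 219, 220 and 190 FPKM in WT and 215, 169 and 243 FPKM in KO, and the TIMP sum was 229, 203 and 155 FPKM in WT and 180, 148 and 201 FPKM in KO. The ratio of the TIMP sum to the MMP sum was 0.926 ± 0.114 (SD, n = 3) in WT and 0.846 ± 0.0264 (SD, n = 3) in KO, and the groups overlapped. The ADAMTS sum was 105 ± 13.4 FPKM in WT and 105 ± 7.67 FPKM in KO (SD, n = 3 each).

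**Figure D2:**
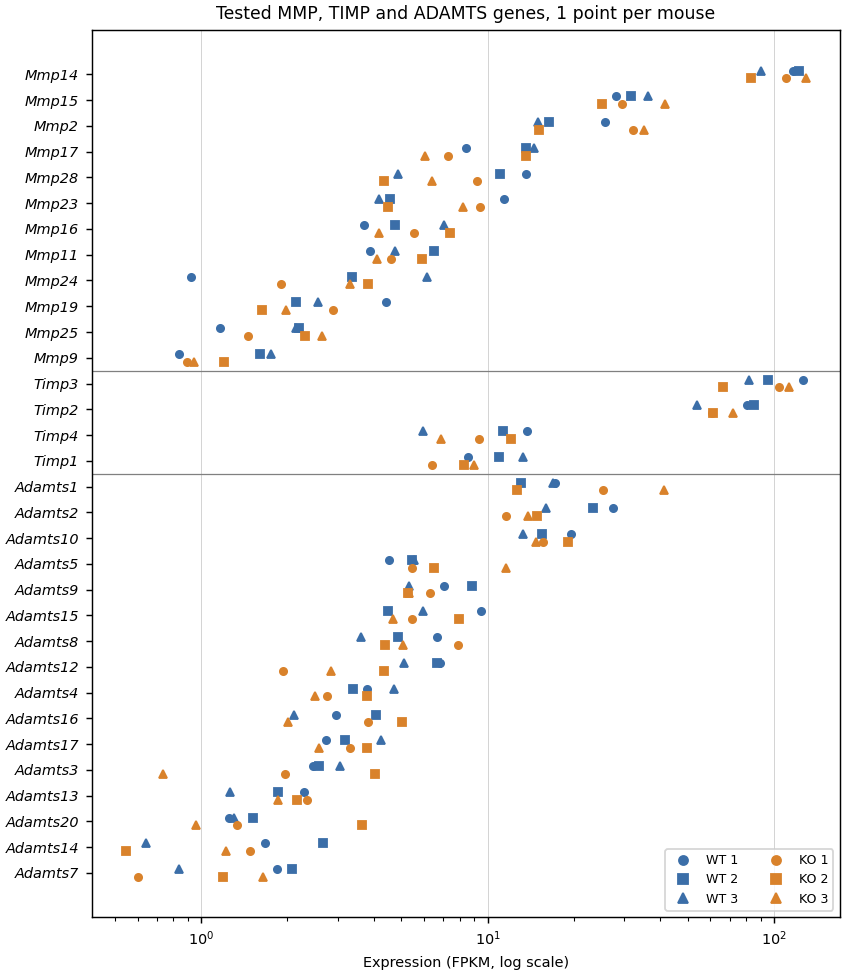
Level of each of the 32 tested members in each mouse (FPKM, log scale), ordered by mean level within the MMP, TIMP and ADAMTS families, with WT above KO on each line. Mmp14, Timp3 and Timp2 sit highest, and the 3 KO points lie apart from the 3 WT points in Adamts2 and Adamts12, where every KO value is below every WT value.

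Between KO and WT, lower levels of Adamts12 and Adamts2 stood out among the 32 tested members. Adamts12, which is known to cleave cartilage oligomeric matrix protein, averaged 3.04 ± 1.22 FPKM in KO and 6.2 ± 0.939 FPKM in WT (SD, n = 3 each). Adamts2, the main procollagen I N-proteinase, averaged 13.4 ± 1.7 FPKM in KO and 22.2 ± 5.73 FPKM in WT (SD, n = 3 each). These were the 2 members with an unadjusted limma p under 0.05, where 5.88% of the 14247 tested genes had such a p with 3.11% lower and 2.77% higher in KO. They were also the 2 members whose groups did not overlap, against 11.1% of all tested genes, or 5.70% with KO lower and 5.37% with KO higher. A count of 2 of 32 is close to the first share and below the second, so the families as a whole did not stand out. No tested gene had an adjusted p under 0.05 in limma with Benjamini-Hochberg adjustment, and 838 had an unadjusted p under 0.05. The smallest adjusted p of a member was 0.841.

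The count of members with an unadjusted limma p under 0.05 depended on single libraries, as did that of all genes. It was 1 of 32 without WT 1, where 4.65% of all tested genes had such a p, 1 without WT 2 (3.16%), 3 without WT 3 (4.90%), 0 without KO 1 (3.58%), 5 without KO 2 (13.1%) and 2 without KO 3 (6.97%). Without both KO 1 and KO 3 it was 1, Adamts20, against 12.8% of all tested genes. With fewer libraries more genes had groups that did not overlap. Such members numbered 4 of 32 without WT 1, beside 20.5% of all tested genes, 3 without WT 2 (16.9%), 8 without WT 3 (20.8%), 5 without KO 1 (17.8%), 7 without KO 2 (30.7%), 3 without KO 3 (23.6%) and 17 without both KO 1 and KO 3 (61.4%). There were 4 with quantile normalization (12% of all tested genes), 1 with GC correction (9.56%), and 1 of 18 with a minimum of 5 FPKM (11.6%).

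The log2 fold change, taken on log2(FPKM + 1) throughout and given as KO minus WT, was below 0 in 20 of the 32 members and in 50.8% of all tested genes. Its median was -0.06 over the members and -0.01 over all tested genes. By family, it was below 0 in 7 of 12 MMP genes, 4 of 4 TIMP genes and 9 of 16 ADAMTS genes. On this scale the change of genes near 1 FPKM is understated.

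**Figure D3:**
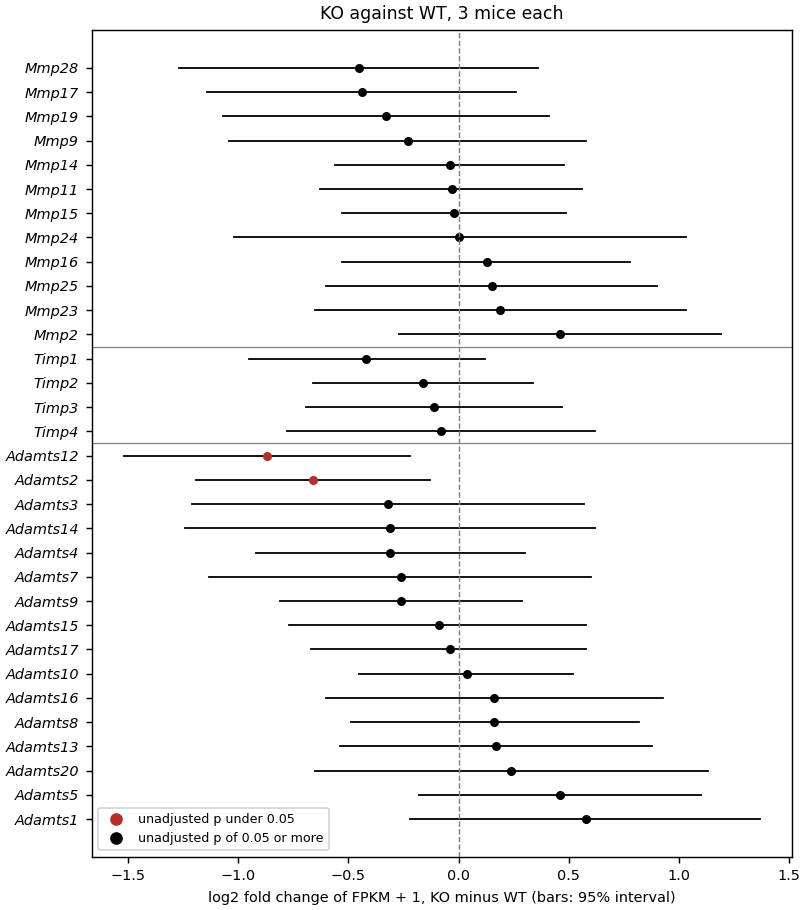
The log2 fold change of FPKM + 1 (KO minus WT, 3 mice each) of the 32 tested members, with its 95% interval from limma. The intervals of Adamts12 and Adamts2 (red) lie below 0, and those of the other 30 members include 0.

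Adamts12 (chr15:11064790-11349231, GRCm38) measured 6.84, 6.64 and 5.12 FPKM in WT and 1.92, 4.34 and 2.85 FPKM in KO. Among the KO mice the level was lowest in KO 1, and KO 2 came closest to the WT mice without reaching them. The log2 fold change was -0.87 with an SE of 0.29, with an unadjusted p = 0.0139 and an adjusted p = 0.841 in limma and p = 0.1 in an exact two-sided permutation test. This is the smallest exact p that 3 mice against 3 allow. About 132 to 289 fragments stood behind the KO values and 505 to 672 behind the WT values. Leaving out KO 1 gave -0.66 and a limma p of 0.0556, and without both KO 1 and KO 3 the value was -0.42 with a limma p of 0.218.

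Adamts2 (chr11:50602084-50807573, GRCm38) measured 27.3, 23.3 and 16.0 FPKM in WT and 11.6, 14.9 and 13.8 FPKM in KO. The 3 KO mice were close together, whereas WT 3 was nearer to them than to the other WT mice. The log2 fold change was -0.66 with an SE of 0.24 (limma p = 0.0194, adjusted p = 0.841), and the exact permutation test gave p = 0.1. The limma p was 0.0895 without WT 1, 0.0650 without WT 2, 0.0702 without KO 1 and 0.175 without both KO 1 and KO 3, with values from -0.87 to -0.50 over the 6 left-out libraries. After correction of the libraries for GC content the value was -0.58 and the groups overlapped.

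Markers of fibroblasts, a cell type known to make fibrillar collagen, were read beside both genes. Dcn, Lum, Pdgfra, Col1a1, Col1a2 and Slc6a13 summed to 2041, 1784 and 1330 FPKM in WT and 1257, 910 and 1213 FPKM in KO, with all 6 of 6 below 0 in log2 fold change and 1 of 6, Col1a1, at an unadjusted p under 0.05. Most of this sum came from the collagens Col1a1 and Col1a2, and the groups overlapped in the other 4 markers, with log2 fold changes of -0.18 for Dcn, -0.05 for Lum, -0.32 for Pdgfra and -0.45 for Slc6a13. Col1a1, which encodes the procollagen I chain that Adamts2 trims, measured 812, 765 and 577 FPKM in WT and 481, 286 and 454 FPKM in KO. The groups did not overlap, and the log2 fold change was -0.84 (unadjusted limma p = 0.0156, adjusted p = 0.841, exact permutation p = 0.1). Its limma p was 0.0682 without WT 1, 0.0667 without WT 2 and 0.0584 under the replicate block with GC correction. The markers of other cell types are given beside these. Log2 fold changes were below 0 in 50.8% of all tested genes, and 3.11% were lower in KO with an unadjusted p under 0.05. The 6 astrocyte markers summed to 575 to 671 FPKM in WT and 431 to 477 FPKM in KO, with 2 of 6 lower at such a p. The 5 markers of microglia and macrophages summed to 104 to 135 FPKM in WT and 90.0 to 98.6 FPKM in KO, with 0 of 5 at such a p. The 6 oligodendrocyte markers had overlapping sums of 283 to 410 FPKM in WT and 150 to 356 FPKM in KO, with 3 of 6 lower at such a p and Mog at a log2 fold change of 0.57. Pericyte markers summed to 789 to 1285 FPKM in WT and 833 to 935 FPKM in KO, with 5 of 6 below 0 and 1 of 6, Anpep, lower at such a p. None of the fibroblast, astrocyte, microglia, oligodendrocyte or pericyte markers was at 0 in any library, and their part in the lower levels of Adamts2 and Adamts12 was not tested.

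**Figure D4:**
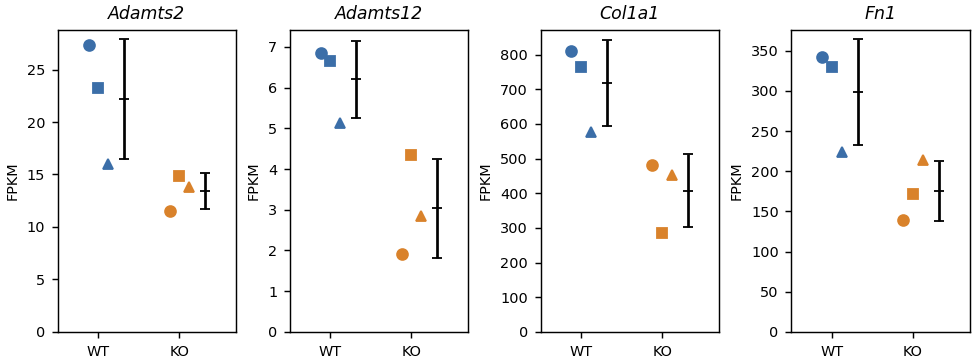
FPKM of Adamts2, Adamts12, Col1a1 and Fn1 in each mouse (circle, square and triangle for mouse 1, 2 and 3), with the mean and SD of each group beside the points. In all 4 genes each KO value is below each WT value.

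The other procollagen N-proteinases did not share the separation of Adamts2. Adamts3, which processes the lymphatic growth factor Vegfc as well as procollagen II, measured 2.46, 2.59 and 3.06 FPKM in WT and 1.96, 4.03 and 0.737 FPKM in KO. The highest and the lowest of the 6 libraries were KO 2 and KO 3, so the KO values enclosed the WT values. Adamts14 measured 1.68, 2.66 and 0.641 FPKM in WT and 1.48, 0.545 and 1.22 FPKM in KO, and the groups overlapped at a depth of about 18 to 123 fragments. Their log2 fold changes were -0.32 and -0.31 (exact permutation p = 0.7 and 0.4). Adamts7, the other enzyme known to cleave cartilage oligomeric matrix protein, measured 1.84, 2.08 and 0.839 FPKM in WT and 0.603, 1.2 and 1.65 FPKM in KO. WT 3 lay between the KO mice, and the log2 fold change was -0.26 with a 95% interval from -1.13 to 0.60.

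Among the ADAMTS enzymes that cut proteoglycans, Adamts1 and Adamts5 had the largest positive log2 fold changes. Adamts1, an early-response aggrecanase that also restrains blood vessel growth, measured 17.2, 13.1 and 17.0 FPKM in WT and 25.3, 12.7 and 41.3 FPKM in KO. Levels in KO 1 and KO 3 exceeded those of every WT mouse, whereas KO 2 lay under the lowest of them. Its log2 fold change of 0.58 had a 95% interval from -0.22 to 1.37 (exact permutation p = 0.4). Adamts5, a major aggrecanase, measured 4.53, 5.44 and 5.55 FPKM in WT and 5.46, 6.48 and 11.6 FPKM in KO. Only KO 1 fell among the WT values, and KO 3 was far above the rest. The corresponding log2 fold change was 0.46, with a 95% interval from -0.18 to 1.10 (exact permutation p = 0.2). The genes lie near each other on chromosome 16 (Adamts1 at chr16:85793827-85803113, Adamts5 at chr16:85856173-85901828, GRCm38, both on the minus strand), and both were highest in KO 3.

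In the remaining proteoglycanases the groups overlapped. Adamts4, another aggrecanase, measured 3.80, 3.38 and 4.72 FPKM in WT and 2.75, 3.79 and 2.49 FPKM in KO. The lowest levels were those of KO 1 and KO 3, with KO 2 among the WT mice, for a log2 fold change of -0.31 (exact permutation p = 0.2). Adamts9, which is known to act in vessel and cilium development, measured 7.06, 8.82 and 5.30 FPKM in WT and 6.30, 5.27 and 5.31 FPKM in KO. WT 3 was level with KO 2 and KO 3. Adamts8 measured 6.68, 4.87 and 3.61 FPKM in WT and 7.89, 4.38 and 5.08 FPKM in KO, and Adamts15 measured 9.48, 4.48 and 5.93 FPKM in WT and 5.44, 7.97 and 4.69 FPKM in KO. These genes are neighbours on chromosome 9, and they were highest in different libraries, KO 1 and WT 1. Adamts20 measured 1.25, 1.51 and 1.30 FPKM in WT and 1.34, 3.64 and 0.959 FPKM in KO, with KO 2 alone far above the rest. The log2 fold changes of these last 4 genes were -0.26, 0.16, -0.09 and 0.24, each with a 95% interval that included 0.

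Adamts13, which cuts von Willebrand factor and is made mainly by liver stellate cells, was low in these vessels. It measured 2.28, 1.86 and 1.26 FPKM in WT and 2.34, 2.16 and 1.85 FPKM in KO. The groups overlapped, with a log2 fold change of 0.17 (exact permutation p = 0.5). Its substrate Vwf, made by endothelial cells, measured 107, 73.7 and 44.1 FPKM in WT and 55.0, 42.8 and 52.4 FPKM in KO, with WT 3 among the KO values.

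Of the ADAMTS genes related to fibrillin microfibrils, Adamts10 had by far the highest level. It measured 19.5, 15.5 and 13.3 FPKM in WT and 15.6, 19.0 and 14.7 FPKM in KO, and the log2 fold change of 0.04 had a 95% interval from -0.45 to 0.52. Adamts16 measured 2.96, 4.07 and 2.11 FPKM in WT and 3.83, 5.04 and 2.01 FPKM in KO, with KO 2 highest and KO 3 lowest. Adamts17 measured 2.73, 3.17 and 4.25 FPKM in WT and 3.31, 3.81 and 2.59 FPKM in KO, with KO 3 lowest and WT 3 highest. Their log2 fold changes were 0.16 and -0.04, and both 95% intervals included 0. Adamts6 and Adamts18 were not tested but passed 1 FPKM in some mice. Adamts6 measured 0.556, 0.337 and 0.934 FPKM in WT and 0.971, 1.39 and 0.0505 FPKM in KO. The KO 3 value was near the level of 3 fragments, and the KO 2 value was highest. Adamts18 measured 0.690, 0.312 and 1.32 FPKM in WT and 0.148, 1.6 and 0.184 FPKM in KO, with WT 3 and KO 2 high. Adamts19 ranged from 0 to 0.288 FPKM.

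Mmp2, the constitutive gelatinase that cleaves type IV collagen of the basement membrane, was the MMP gene with the largest positive value. It measured 25.6, 16.4 and 15 FPKM in WT and 32.3, 15.1 and 35.2 FPKM in KO. Values of KO 1 and KO 3 were above all those of WT, and KO 2 lay at the level of the lowest WT mouse. The 95% interval of its log2 fold change of 0.46 ran from -0.27 to 1.19 (exact permutation p = 0.3). Mmp9, the inducible gelatinase of neutrophils and injured vessels, was far lower, at 0.839, 1.61 and 1.75 FPKM in WT and 0.892, 1.2 and 0.943 FPKM in KO. WT 1 was lowest of all, and the values rested on about 23 to 64 fragments. Its log2 fold change was -0.23, with a 95% interval from -1.04 to 0.58. The neutrophil markers S100a8, S100a9, Ngp, Camp and Retnlg summed to 6.67, 28.1 and 18.3 FPKM in WT and 22.9, 4.64 and 4.87 FPKM in KO, with S100a8, Camp and Retnlg at 0 in some libraries.

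The high values of Adamts1 and Mmp2 came in the same KO mice as the high choroid plexus markers. Kcne2, an ion channel subunit of choroid plexus, measured 31.7, 37.7 and 37.5 FPKM in WT and 94.8, 38.2 and 142 FPKM in KO. All 4 of 4 choroid plexus markers had log2 fold changes above 0, where 50.8% of all tested genes had them below 0, and 2 of 4 had an unadjusted limma p under 0.05 and were higher in KO (2.77% of all tested genes). Their part in the levels of Adamts1, Adamts5 and Mmp2 was not tested. Mmp2 was also high in WT 1, where these markers were not raised. The 3 libraries highest in Mmp2 were those with the most smooth muscle marker RNA, at 562 FPKM in WT 1, 754 FPKM in KO 1 and 381 FPKM in KO 3, against 225 to 257 FPKM in the other libraries, and the part of these markers was not tested either. Without KO 1 and KO 3, the log2 fold change was -0.28 for Adamts1 and -0.27 for Mmp2. Without KO 2 it was 1.0 for Adamts1, 0.83 for Mmp2 and -0.75 for Mmp17, with unadjusted limma p-values of 0.00361, 0.00914 and 0.0245.

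**Figure D5:**
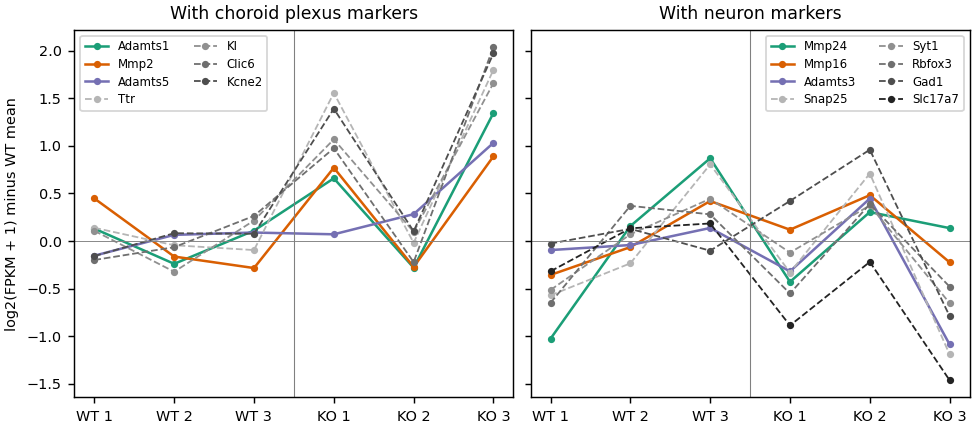
The log2(FPKM + 1) of each gene minus its WT mean in the 6 libraries, with Adamts1, Mmp2 and Adamts5 beside 4 choroid plexus markers on the left and Mmp24, Mmp16 and Adamts3 beside 5 neuron markers on the right. Adamts1, Mmp2 and the choroid plexus markers are all high in KO 1 and KO 3, while KO 2 is nearer to WT. Adamts5 is highest in KO 3, and KO 2 is also above every WT value.

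The membrane-type MMPs held most of the MMP signal. Mmp14, the pericellular collagenase that also activates pro-Mmp2, measured 117, 122 and 90.1 FPKM in WT and 110, 83.2 and 129 FPKM in KO. The lowest level was in KO 2 and the highest in KO 3, and the log2 fold change of -0.04 had a 95% interval from -0.56 to 0.48. Mmp15 measured 28.1, 31.8 and 36.2 FPKM in WT and 29.5, 25.1 and 41.5 FPKM in KO. The same KO mice were lowest and highest, and the log2 fold change of -0.02 had a 95% interval from -0.53 to 0.49.

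Mmp16, Mmp17, Mmp24 and Mmp25 were lower in level and more variable among mice. Mmp17, an enzyme anchored to the membrane by a lipid, measured 8.39, 13.6 and 14.5 FPKM in WT and 7.25, 13.7 and 6.06 FPKM in KO. Every WT mouse exceeded KO 1 and KO 3, while KO 2 matched WT 2, for a log2 fold change of -0.44 (exact permutation p = 0.3). Mmp24, a membrane-type enzyme known from neurons, measured 0.921, 3.36 and 6.16 FPKM in WT and 1.91, 3.83 and 3.3 FPKM in KO. WT 1 and WT 3 were the lowest and the highest of all, and the log2 fold change was 0.00 with a 95% interval from -1.02 to 1.03. Mmp16 measured 3.71, 4.77 and 7.07 FPKM in WT and 5.55, 7.42 and 4.16 FPKM in KO, with WT 3 and KO 2 high. Mmp25, known from leukocytes, measured 1.17, 2.19 and 2.14 FPKM in WT and 1.45, 2.30 and 2.65 FPKM in KO, with the groups overlapping. The log2 fold changes of Mmp16 and Mmp25 were 0.13 and 0.15, with 95% intervals from -0.53 to 0.78 and from -0.60 to 0.90. WT 3 and KO 2, which were high for Mmp16 and Mmp17, also had the most neuron marker RNA. For Mmp17, WT 2 was level with KO 2. Snap25, Syt1, Rbfox3, Gad1 and Slc17a7 summed to 157, 229 and 282 FPKM in WT and 152, 256 and 103 FPKM in KO. Of these 5 markers, 4 had log2 fold changes below 0 (50.8% of all tested genes). Slc17a7 was lower in KO at an unadjusted limma p under 0.05 (3.11%). No neuron marker was at 0, and their part in these levels was not tested.

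The other expressed MMP genes were secreted or shed enzymes. Mmp28, or epilysin, measured 13.6, 11.1 and 4.88 FPKM in WT and 9.17, 4.35 and 6.42 FPKM in KO. WT 3 and KO 2 were both low, and the value was -0.45 on the log2 scale (exact permutation p = 0.4). Without WT 3 it was -0.85 with a limma p of 0.0293. Mmp11, or stromelysin 3, measured 3.90, 6.48 and 4.76 FPKM in WT and 4.60, 5.88 and 4.11 FPKM in KO, and mouse 2 was highest in each group. Mmp19 measured 4.44, 2.14 and 2.55 FPKM in WT and 2.89, 1.63 and 1.99 FPKM in KO. WT 1 stood above the rest, with a log2 fold change of -0.33 (exact permutation p = 0.4). Mmp23 measured 11.4, 4.55 and 4.18 FPKM in WT and 9.44, 4.51 and 8.19 FPKM in KO, with WT 1, KO 1 and KO 3 high and the other mice close together. These were also the 3 libraries with the most smooth muscle marker RNA. Acta2, Tagln, Myh11 and Cnn1 summed to 562, 225 and 248 FPKM in WT and 754, 257 and 381 FPKM in KO, and their part in the level of Mmp23 was not tested. On the log2 scale Mmp11 and Mmp23 differed by -0.03 and 0.19, with 95% intervals from -0.63 to 0.56 and from -0.65 to 1.03. Genes on the opposite strand share 22.3% of the exon bases of Mmp19 (with Tmem198b), 13.6% of Mmp24 (with BC029722), 12% of Mmp28 (with 1700020L24Rik) and 10.6% of Adamts8 (with Gm29724), so reads there may not be told apart.

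Transcripts of the chromosome 9 cluster were at or near 0 in both groups. Mmp1a, Mmp1b, Mmp3, Mmp7 and Mmp27 were listed at 0 in all 6 libraries. Mmp8, the neutrophil collagenase, had the highest value, 0.356 FPKM or about 10 fragments in WT 3, and Mmp13 reached 0.293 FPKM in WT 1 and was 0 in the other libraries. Mmp10, Mmp12 and Mmp20 were at or under the level of 3 fragments in every library. At these depths a level of up to 0.238 to 0.436 FPKM for Mmp7, the shortest transcript of the cluster, could not be told from 0. Mmp21, the remaining MMP gene that was not tested, measured 0.341 FPKM in WT 1, 0.517 FPKM in KO 2 and 0 in the other libraries.

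Each of the 4 inhibitors was expressed, and Timp1 had the most negative value among them. Timp1, the inducible inhibitor, measured 8.53, 10.9 and 13.3 FPKM in WT and 6.42, 8.27 and 8.96 FPKM in KO. Only WT 1 fell among the KO mice. On the log2 scale the fold change was -0.42, with a 95% interval from -0.95 to 0.12 (exact permutation p = 0.2). Timp2, which joins Mmp14 to activate pro-Mmp2, measured 80.7, 85.0 and 53.9 FPKM in WT and 60.6, 61.1 and 71.8 FPKM in KO. WT 3 was lowest of all and the other WT mice highest. Timp3 measured 126, 95.4 and 81.6 FPKM in WT and 104, 66.5 and 113 FPKM in KO, with KO 2 lowest. Timp4, an inhibitor with narrow tissue expression, measured 13.8, 11.3 and 5.96 FPKM in WT and 9.30, 12.1 and 6.90 FPKM in KO, and the groups overlapped. The log2 fold changes of these last 3 genes were -0.16, -0.11 and -0.08, with 95% intervals from -0.66 to 0.34, from -0.69 to 0.47 and from -0.78 to 0.62. Exons of Timp3 and Syn3 share 21.3% of the Timp3 exon bases on opposite strands, Timp4 and the neuronal gene Syn2 share 1.5%, and the strand setting of the counting was not given in the sources used here.

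Genes that switch on, hold or clear these proteases were counted from lists. Among the 12 other inhibitors, inducers and clearance genes, 10 had log2 fold changes below 0 (50.8% of all tested genes), 4 had groups that did not overlap, all with KO lower (5.70%), and 1 had an unadjusted limma p under 0.05, lower in KO (3.11%). This last gene was Lrp1, the endocytic receptor that clears MMP and TIMP complexes. It measured 89.8, 91.4 and 78.9 FPKM in WT and 50.3, 50.4 and 68.9 FPKM in KO. The groups did not overlap, and the log2 fold change was -0.62 (unadjusted limma p = 0.0124, adjusted p = 0.841, exact permutation p = 0.1). The limma p of Lrp1 was 0.0502 without WT 2 and 0.0685 under the replicate block with GC correction. Of 8 tested activating proteases, 7 were below 0 (50.8% of all tested genes) and 1, Pcsk6, was lower in KO with an unadjusted p under 0.05 (3.11%). Pcsk6, a proprotein convertase, measured 3.96, 4.68 and 7.35 FPKM in WT and 2.35, 1.29 and 2.86 FPKM in KO. Every KO level was under the lowest WT level, with a log2 fold change of -1.0 (unadjusted limma p = 0.0114, adjusted p = 0.841, exact permutation p = 0.1). Without WT 3 its limma p was 0.0602. For Furin, which activates the membrane-type MMPs, this value was -0.24 (exact permutation p = 0.4).

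The matrix substrates of these enzymes were counted in the same way. Of 16 collagen, fibronectin, laminin and other basement membrane genes, 15 had log2 fold changes below 0, where 50.8% of all tested genes did. In 9 the groups did not overlap, all with KO lower (5.70% of all tested genes), and 4 had an unadjusted limma p under 0.05, all lower in KO (3.11%). Fn1, which encodes fibronectin, measured 343, 330 and 223 FPKM in WT and 139, 172 and 214 FPKM in KO. WT 3 and KO 3 were close, and the log2 fold change was -0.76 (unadjusted limma p = 0.0143, adjusted p = 0.841, exact permutation p = 0.1). Leaving out WT 1, WT 2 or KO 1 gave a limma p of 0.0642, 0.0652 and 0.0565. Lama2, a laminin chain of the astrocyte and fibroblast side of the vessel, measured 12.5, 11.7 and 10.2 FPKM in WT and 7.78, 8.07 and 7.19 FPKM in KO. Lamc1, the laminin chain shared by most laminins, measured 71.2, 60.7 and 62.4 FPKM in WT and 43.0, 44.7 and 54.8 FPKM in KO. In both genes each KO mouse was below each WT mouse, with log2 fold changes of -0.52 and -0.44 (unadjusted limma p = 0.0299 and 0.0437, adjusted p = 0.841 and exact permutation p = 0.1 for each). The call of Lama2 ended under the replicate block (limma p of 0.0550) and without WT 1, WT 2, KO 1 or KO 3, and that of Lamc1 with a minimum of 5 FPKM (0.0506), no trend in the prior variance (0.0690), the block (0.0728), GC correction (0.0643) or length correction (0.0684), and when KO 1 or any 1 WT library was left out. The median of the 16 genes was -0.40, beside -0.01 over all tested genes. The summed astrocyte markers and the summed microglia and macrophage markers were also lower in KO without overlap. The fibroblast list shares Col1a1 and Col1a2 with the 16 genes, and its other 4 markers, Dcn, Lum, Pdgfra and Slc6a13, summed to 513, 394 and 318 FPKM in WT and 365, 287 and 329 FPKM in KO, with overlap. Of the 6 pericyte markers, 2 were lower in KO without overlap (5.70% of all tested genes). These were Pdgfrb and Anpep, with log2 fold changes of -0.39 and -0.46. The other pericyte markers overlapped, with Rgs5 at 0.24, and so did the summed pericyte markers. The part of these cell types in the levels of the matrix genes was not tested. Of the 5 tested proteoglycans and link proteins, 0 had an unadjusted p under 0.05 and the median was -0.24, and of the 6 other substrates 0 had such a p and the median was -0.16.

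Most subunits of AP-1, whose word stands in the cluster promoters, were expressed in these vessels. Of 7 subunits 5 were tested, all 5 had log2 fold changes below 0 (50.8% of all tested genes), 1 of 5 had an unadjusted limma p under 0.05 and was lower in KO (3.11%), and Fosl1 was listed at 0 in every library. Jund measured 91.5, 84.5 and 93.5 FPKM in WT and 69.2, 58.9 and 64.6 FPKM in KO. The groups were well apart, and the log2 fold change was -0.48 (unadjusted limma p = 0.0263, adjusted p = 0.841, exact permutation p = 0.1). With GC correction it was -0.29 with a limma p of 0.209, and the call also ended under the replicate block (0.0512) and when WT 1, WT 2 or WT 3 was left out. Fos measured 2.13, 4.17 and 3.73 FPKM in WT and 3.36, 3.47 and 0.825 FPKM in KO, with KO 3 lowest. These values were set beside the promoter letters as a description, and a link between them was not tested.

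Base composition moved with the comparison across all genes. In the 2835 tested genes with the lowest GC content, up to 44.1%, the median log2 fold change was 0.16, and in the 2835 with the highest, from 55.7%, it was -0.18. The 11 members among the latter had a median of -0.02. After correction for this trend Adamts12 had a log2 fold change of -0.93, with an unadjusted limma p of 0.0096.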

How the data were processed

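RNA was extracted from isolated brain microvessels with TRIzol, and paired-end libraries came from a strand-marking NEBNext Ultra II kit. The authors trimmed reads with FASTX_Trimmer and BBMap, mapped them with TopHat (mm10, per the labels) and deposited FPKM values for each library. The counting program, its strand setting and the scaling between libraries were not given in the sources used here. The authors tested with DESeq2, which needs counts.

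Samples were grouped by the genotype in the labels. Members were matched by symbol. Values were analysed as log2(FPKM + 1) with limma 3.58.1 (R 4.3.3), with a trended prior variance, over the 14247 genes averaging 1 FPKM or more, and adjusted by the Benjamini-Hochberg method over all of them. The exact permutation tests were two-sided, with a smallest p of 0.1. Nothing says whether the mice were littermates, and p-values measure the spread between these samples. The script was tested on simulated data. Depth was estimated from the spacing of low FPKM values, and the levels given for 3 fragments cover counting error only. Fragments behind a value were approximated from the longest transcript in GENCODE (GRCm38), whose coordinates are printed. Promoter windows came from RefSeq. Tables were handled with pandas 2.3.3 and numpy 2.4.6, permutation tests with scipy 1.17.1 and plots with matplotlib 3.10.9, in Python 3.11.15.

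All tested members were named with every value, and members under 1 FPKM by range unless a library passed 1 FPKM. Genes of the other lists, apart from cell type markers, were named where the unadjusted p was under 0.05. Markers were given as sums for some cell types, and not every marker at such a p was named. Furin, Vwf, Kcne2, Cdh5, Fos and the single markers were named after their values were seen. Members and lists were chosen with earlier results of these data known. Titles number the mice 1 to 3 in each group, and same-numbered mice did not deviate together (correlations of 0.04, 0.03 and 0), so no pairing was used. The libraries carry other numbers in the file headers, so the title numbers, on which this check and the replicate block rest, may mark nothing shared. Alternatives were other filters, pseudocounts, scalings, GC and length corrections, a replicate block and leaving out each library. Leaving out KO 1 and KO 3 together was chosen after seeing the data.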

Additional observations from a re-analysis of the deposited data

How the results depend on the processing

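The 32 tested members gave 530 values over the alternatives, of which 476 kept their direction and 54 changed it. In 13 members the direction never changed, Adamts12 and Adamts2 among them. The 2 members with an unadjusted limma p under 0.05 were Adamts12 and Adamts2. With a minimum of 5 FPKM, 18 members were tested, and only Adamts2 had such a p. Adamts12, at a mean of 4.62 FPKM, was not tested there. The count of members with such a p, new ones included, was 0 to 5 when 1 library was left out. Without KO 1 and KO 3 the log2 fold change was -0.42 for Adamts12 and -0.51 for Adamts2. The 2 members whose groups did not overlap became 1 with a minimum of 5 FPKM, 1 with GC correction, alone or with the replicate block, 4 with quantile normalization, 3 to 8 when 1 library was left out (16.9% to 30.7% of all tested genes) and 17 of 32 without KO 1 and KO 3 (61.4%), where 1 KO mouse remains and its spread is taken from WT. The 838 genes with an unadjusted p under 0.05 became 450 (without WT 2) to 1871 (without KO 2), and 1825 without KO 1 and KO 3. An adjusted p under 0.05 was reached by 0 to 4 genes with 1 library left out and by 7 without KO 1 and KO 3. The replicate block gave 871 genes and 2 members with an unadjusted p under 0.05, and with GC correction 720 genes and 2 members. The block alone ended the unadjusted calls of Lama2, Lamc1 and Jund. The block with GC correction ended those of Lrp1, Col1a1, Lamc1, Jund and Adam15, of which Lamc1, Jund and Adam15 were also lost with GC correction alone, and Lama2 kept its call. Neither fit ended a call of a member.

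The log2 fold change turned to 0.03 for Adamts17, 0.09 for Mmp11, 0.04 for Mmp14, 0.15 for Mmp15 and -0.01 for Mmp16 with GC correction, with the same values under the replicate block with GC correction, to 0.01 for Mmp15 with length correction, and to -0.03 for Mmp24 with quantile normalization. Without KO 1 and KO 3 it turned to -0.28 for Adamts1, 0.29 for Adamts15, 0.15 for Adamts17, 0.45 for Adamts3, -0.14 for Adamts8, 0.21 for Mmp11, 0.19 for Mmp17, -0.27 for Mmp2, -0.36 for Mmp23 and 0.27 for Timp4. With 1 library left out the values that changed direction ranged from -0.08 to 0.18 for Adamts10, -0.30 to 0.16 for Adamts15, -0.06 to 0.44 for Adamts16, -0.15 to 0.09 for Adamts17, -0.14 to 0.49 for Adamts20, -0.70 to 0.06 for Adamts3, -0.05 to 0.35 for Adamts8, -0.17 to 0.13 for Mmp11, -0.18 to 0.13 for Mmp14, -0.22 to 0.13 for Mmp15, -0.05 to 0.34 for Mmp16, -0.04 to 0.59 for Mmp23, -0.51 to 0.44 for Mmp24, -0.04 to 0.31 for Mmp25, -0.25 to 0.12 for Timp3 and -0.40 to 0.14 for Timp4. The cause of these changes was not tested. Depth limits members that rest on few fragments, and these were not only genes near 1 FPKM. Timp1, at a mean of 9.41 FPKM, rested on about 45 to 136 fragments.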

Other observations

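Relatives of the ADAMTS genes and the sheddases of the cell surface were expressed beside the members. All 6 ADAMTS-like genes, which encode matrix proteins built like ADAMTS enzymes without the protease, were tested. Of these 5 had log2 fold changes below 0 (50.8% of all tested genes), and 0 had an unadjusted limma p under 0.05 (5.88%). The median was -0.28, beside -0.01 over all tested genes. Adamtsl2, which binds the store of transforming growth factor in the matrix, measured 6.35, 3.89 and 4.50 FPKM in WT and 2.05, 5.78 and 1.97 FPKM in KO. Levels in KO 1 and KO 3 were low and KO 2 lay among the WT mice.

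Adam15 was the 1 of 7 tested ADAM sheddases with an unadjusted limma p under 0.05, lower in KO (3.11% of all tested genes). This membrane protease of vascular cells measured 83.3, 82.9 and 73.1 FPKM in WT and 64.2, 46.2 and 57.4 FPKM in KO. The groups did not overlap, with a log2 fold change of -0.51 (unadjusted limma p = 0.0276, adjusted p = 0.841, exact permutation p = 0.1). With GC correction it was -0.36 with a limma p of 0.0896 (0.126 with the replicate block), and the limma p was 0.0823 without WT 1 and 0.0873 without WT 2. Adam10, the main sheddase of Notch receptors, measured 34.7, 29.7 and 32.9 FPKM in WT and 33.0, 36.7 and 28.8 FPKM in KO, and the log2 fold change was 0.01 with a 95% interval from -0.41 to 0.44. Adam17, which releases tumour necrosis factor, measured 15.2, 12.7 and 9.20 FPKM in WT and 10.8, 13.3 and 19.4 FPKM in KO, with KO 3 highest. Adamtsl2, Adam10 and Adam17 were named after their values were seen.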
